A study of Drosophila melanogaster with 2 samples.

Results

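The peaks described here are those at divergent promoter pairs: places where transcription of 2 protein-coding genes on opposite strands starts close to the same bound site. They come from chromatin immunoprecipitation and sequencing with an anti-GFP antibody on sheared chromatin from entire larvae, males and females pooled, that had reached the wandering part of the third instar (age not known) and belonged to the Drosophila melanogaster strain tai-GFP, which stably carries tai with GFP fused at its C terminus. The single group had 2 biological replicates, numbered 1 and 3, each with its own biosample of that strain, and no untagged larvae, other stage or other genotype was analysed here. A peak was taken when its summit, in the authors' list that passed their irreproducible discovery rate (IDR) step, lay within 500 bp of annotated transcription start sites (TSSs) of at least 2 protein-coding genes on opposite strands. That held for 152 of the 2567 IDR peaks on the 6 main arms. A further 689 had TSSs of 1 strand only within 500 bp and are called one-directional promoter peaks, and 1726 lay over 500 bp from any protein-coding TSS. By the same rule the strongest 2567 regions of replicate 1 alone gave 243 such peaks and those of replicate 3 alone gave 130. The rule uses position only. Read depth is not given by these lists, and all signal values are the authors' own. Their scale is not stated, so they rank peaks within a list and are not compared between lists.

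In a compact genome such as that of the fly, many genes lie head to head, so that a short stretch of DNA carries promoters for both directions. Many genes of such pairs serve functions that every cell needs, and a well-known element of these promoters is the DNA replication-related element (DRE), bound by DREF. Taiman, the product of tai, is a bHLH-PAS coactivator known for its work with the ecdysone receptor and with the juvenile hormone receptors. Because the antibody was against GFP in whole larvae, a peak marks DNA recovered with the tagged protein in an unknown mixture of tissues, and it does not say which gene of a pair, if either, it acts on.

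Sequences of the pooled summit with 100 bp on each side are shown for the 3 strongest of these peaks, for the strongest one that had no counterpart in replicate 3 (Coq4/CG32176), and for 3 that hold a promoter element discussed below. They are the plus strand of RefSeq's copy of the dm6 assembly, 5′ to 3′, and the summit is the base in the middle. Capitals mark the DRE (TATCGATA) or Motif 1 (GGTCACACT), either strand, and each pair is named with its minus-strand gene first.
Atat/Shc, chr3L:9426744-9426944: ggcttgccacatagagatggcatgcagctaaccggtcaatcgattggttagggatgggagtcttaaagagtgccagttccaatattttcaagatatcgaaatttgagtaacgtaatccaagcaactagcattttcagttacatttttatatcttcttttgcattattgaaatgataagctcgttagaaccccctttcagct
CG8372/CG8360, chr2L:8212901-8213101: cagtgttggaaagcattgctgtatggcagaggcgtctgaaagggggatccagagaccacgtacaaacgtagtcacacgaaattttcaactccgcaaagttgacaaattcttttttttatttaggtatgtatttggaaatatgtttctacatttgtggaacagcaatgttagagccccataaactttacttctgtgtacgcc
Chro/Ssl1, chr3L:22878803-22879003: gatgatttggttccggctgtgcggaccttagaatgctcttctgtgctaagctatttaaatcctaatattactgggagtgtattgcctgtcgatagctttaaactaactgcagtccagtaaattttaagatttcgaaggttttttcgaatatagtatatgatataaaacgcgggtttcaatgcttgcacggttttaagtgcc
Coq4/CG32176, chr3L:17433705-17433905: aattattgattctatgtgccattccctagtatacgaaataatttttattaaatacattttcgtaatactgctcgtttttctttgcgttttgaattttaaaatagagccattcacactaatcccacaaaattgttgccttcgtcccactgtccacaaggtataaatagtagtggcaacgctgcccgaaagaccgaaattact
CG7369 and its minus-strand neighbour, with DRE, chr3L:22741611-22741811: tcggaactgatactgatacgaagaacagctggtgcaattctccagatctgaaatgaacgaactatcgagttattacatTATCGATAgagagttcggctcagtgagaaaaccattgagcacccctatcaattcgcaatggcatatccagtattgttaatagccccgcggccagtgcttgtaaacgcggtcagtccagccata
grsm/Spc25, with DRE, chr3R:12961595-12961795: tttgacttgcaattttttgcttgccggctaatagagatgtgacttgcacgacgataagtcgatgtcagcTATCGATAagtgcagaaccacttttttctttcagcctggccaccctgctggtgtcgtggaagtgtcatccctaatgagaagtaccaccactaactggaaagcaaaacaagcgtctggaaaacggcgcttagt
CG32428/CG5969, with Motif 1, chr3L:20473345-20473545: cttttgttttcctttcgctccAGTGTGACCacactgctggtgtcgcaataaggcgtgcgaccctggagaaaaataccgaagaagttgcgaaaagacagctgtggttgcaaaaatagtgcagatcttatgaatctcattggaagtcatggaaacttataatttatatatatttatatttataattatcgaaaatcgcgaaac

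The label of a divergent pair held for nearly all of these peaks, as it does for nearly all annotated pairs. Of the 2720 annotated pairs with TSSs within 1000 bp, 2615 had the minus-strand TSS left of the plus-strand TSS, which is the head-to-head arrangement. In 149 of the 152 peaks (98.0%, 95% Clopper-Pearson interval 94.3 to 99.6) the TSSs nearest the summit lay so, a share close to that of the annotation. In the other 3 the genes overlapped at their 5′ ends, by 202 to 266 bp: CG31808/Cyt-c-d, oys/COX7C and CG11825/CG33474, with pooled signals of 177, 87.0 and 69.8. All such intervals cover counting error only, and neighbouring peaks share chromatin, so no test across peaks was made and classes are set side by side by their counts. The 152 peaks fell on 141 distinct pairs with 282 genes. Within 500 bp of the summit, 4 peaks had 3 genes: cm with sloth1 and sloth2, Ndfip with Krn and CG7484, chif with Hyls1 and CG4455, and TTLL5 with CG31510 and vig2. By arm, 35 lay on 2L, 23 on 2R, 39 on 3L, 32 on 3R, 2 on chromosome 4 and 21 on X, and the share of 3L was 25.7%, compared with 24.3% of all arm IDR peaks.

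The strongest peak at a divergent pair lay between Atat, which encodes a tubulin acetyltransferase, and Shc, an adaptor of receptor tyrosine kinases (3L, 9426690 to 9427051). Its signal was 709 in the pooled list, 351 in replicate 1 and 351 in replicate 3, at ranks 7, 22 and 4 of those lists. The summit was intergenic, 86 bp from the TSS of Atat and 166 bp from that of Shc. The next, at CG8372/CG8360 (2L, 8212831 to 8213179, 5′ UTR), had a pooled signal of 703, with 384 in replicate 1 (rank 11) and 315 in replicate 3 (rank 9). At these TSSs, 57 bp apart, the summit lay 42 bp inside the transcribed side of CG8360. Both replicates thus placed these peaks among their 22 strongest arm regions.

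Chro/Ssl1, Ino80/Aptx and Brf/sds22 were 3 more of the 12 strongest peaks. The peak at Chro, which encodes the chromodomain protein Chromator, and Ssl1, a subunit of the general factor TFIIH, had a pooled signal of 600.1 (3L, 22878704 to 22879068, 5′ UTR), with 374 in replicate 1 (rank 14) and 227 in replicate 3 (rank 24). At Ino80, the ATPase of a nucleosome remodeler, and Aptx the signal was 371 (3R, 19403082 to 19403452, intergenic), with 249.9 in replicate 1 (rank 46) and 117 in replicate 3 (rank 104). At Brf, a subunit of the RNA polymerase III factor TFIIIB, and sds22, a regulator of protein phosphatase 1, it was 364 (3R, 17391292 to 17391672, intergenic), with 202 in replicate 1 (rank 73) and 165 in replicate 3 (rank 46). These 3 were high in both replicates.

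Among the other peaks of the first 12, CG5611/Mtl, which includes a Rac-like GTPase gene, had a pooled signal of 541 (3R, 27635995 to 27636347, intergenic) and ranked 8 in replicate 1 and 64 in replicate 3. CG11309/CG7632 had 410.0 (3L, 21304431 to 21304744, 5′ UTR) and ranked 51 and 44 in replicates 1 and 3. PAPLA1/Rbsn-5, a phospholipase gene and an endosome fusion gene, had 360.0 (2L, 8159604 to 8159843, intergenic) and ranked 61 and 73. crp/pkaap, of which crp encodes a bHLH factor, had 341 (2L, 16287696 to 16287981, intergenic) and ranked 78 and 61. GCS2beta/CG5131 had 337 (2L, 17484315 to 17484533, intergenic) and ranked 86 and 57, and CG2993/sgll had 319 (3R, 7810185 to 7810438, intergenic) and ranked 145 and 50. The 11 of these 12 peaks that overlapped a region in both replicates ranked 145 or better in each. The exception was Coq4/CG32176, of which Coq4 serves coenzyme Q synthesis: its peak (3L, 17433605 to 17433927, intergenic) had a pooled signal of 343 and 226 in replicate 1 (rank 62), and overlapped no region of the replicate 3 list.

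Peaks at divergent pairs stood high in the pooled list. Their median signal was 120.3 (quartiles 87.0 and 189.7), compared with 92.4 at one-directional promoters (75.3 and 131) and 86.0 away from TSSs (72.5 and 118). Of the 152, 71 lay above the upper quartile of all arm IDR peaks, a signal of 125, or 46.7% (interval 38.6 to 55.0). By construction 25% of all arm IDR peaks do, and the share was 27.7% (24.4 to 31.2) at one-directional promoters and 22.0% (20.1 to 24.0) away from TSSs. The plot of signal by promoter class shows the overlap of the 3 distributions.

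**Figure D1:**
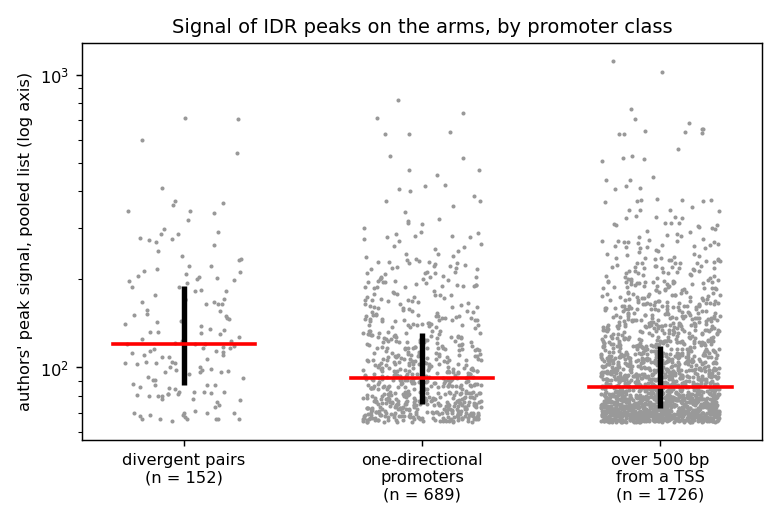
Signal of each IDR peak on the arms (log axis, the authors' pooled value), for 152 peaks at divergent pairs, 689 at one-directional promoters and 1726 over 500 bp from a TSS. Points are peaks, red lines medians (120.3, 92.4 and 86.0) and black bars the quartiles, and points of the 3 classes overlap widely.

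The same order showed along the whole pooled list, which goes on below the IDR limit. Divergent pairs held 12% of the 500 strongest arm regions (interval 9.28 to 15.2) and 7.4% of ranks 501 to 1000 (5.26 to 10.1). They held 5.2% of ranks 1001 to 1500 (3.42 to 7.53) and 2.6% of ranks 1501 to 2000 (1.39 to 4.41). Among the regions that did not pass IDR, ranks 2568 to 10000 gave 1.32% and ranks 20001 to 29974 gave 0.331%. Regions at one-directional promoters made up 29.8% of the 500 strongest and 8.79% of ranks 20001 to 29974. Over that range the divergent share was lower by a larger factor than the one-directional share.

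The comparison that the design gives is between the replicates, and here they differed in how many of these peaks stood among their strongest regions. Of the 152 peaks, 138 overlapped one of the 2567 strongest arm regions of replicate 1 (90.8%, interval 85.0 to 94.9), and 104 one of those of replicate 3 (68.4%, 60.4 to 75.7). Over all 2567 arm IDR peaks the numbers were 1924 in replicate 1 (interval of the share 73.2% to 76.6%) and 1749 in replicate 3 (68.1%, 66.3 to 69.9), so the share at divergent pairs was above that of the whole list in replicate 1 and close to it in replicate 3. At one-directional promoters the shares were 79.8% (76.6 to 82.8) in replicate 1 and 72.6% (69.1 to 75.9) in replicate 3. Both replicates together had 93 of the 152 peaks in these top regions (61.2%, 53.0 to 69.0), compared with 57.3% at one-directional promoters (53.5 to 61.1) and 50.4% of all arm IDR peaks. By pooled rank, it was 54 of 60 in ranks 1 to 500 (90%), compared with 94.2% of all arm IDR peaks there. It was 22 of 37 in ranks 501 to 1000 (59.5%, 42.1 to 75.2), compared with 84.8% of all (81.3 to 87.8), and 14 of 26 in ranks 1001 to 1500 (53.8%), compared with 56.2% of all. In ranks 1501 to 2000 it was 1 of 13 (7.69%), compared with 16.4% of all, and below that 2 of 16 (12.5%), compared with 6.17% of all.

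A region of both lists overlapped 134 of the 152 peaks (88.2%, interval 81.9 to 92.8), compared with 95.7% of all arm IDR peaks. Replicate 3 had no overlapping region for 17 (11.2%, 6.65 to 17.3) and replicate 1 for 1, the peak at the serpin genes Spn42Db/Spn42Dc (pooled signal 74.7, rank 1551 in replicate 3). In replicate 3 the share without a region was 4.93% at one-directional promoters (3.44 to 6.83) and 2.84% away from TSSs (2.11 to 3.74). The 17 peaks ranked 62 to 3448 in replicate 1 with a median of 610, and 2 of them lay at the same pair, Ype/CG1662. After Coq4/CG32176 the strongest of them were at Ras85D/Rlb1, which includes the gene of the Ras GTPase (pooled signal 239.8, rank 194 in replicate 1), CG7218/Cbp20, with a cap-binding protein gene (209, rank 199), and Dad1/CG13384 (204, rank 249). Others were at Cdk1/mRpS7, with the gene of the mitotic kinase (87.2, rank 1238), and at wts/dj-1beta, with the Hippo pathway kinase gene warts (81.4, rank 662).

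The nearest replicate 3 region lay 3677 bp from these 17 peaks at the median, and within 1000 bp for 2 of them. Those were ND-SGDH/RhoGAP68F, a pair with a complex I subunit gene, where a replicate 3 region of rank 651 lay 223 bp from the peak, and wts/dj-1beta, where one of rank 27990 lay 712 bp away. Among peaks found in both lists, the direction was mixed: 72 of 134 ranked higher in replicate 1 (53.7%, 44.9 to 62.4), compared with 47.2% of all arm IDR peaks in both lists. The 4 largest differences in rank all favoured replicate 1. Ugt316A1/Sfxn2 ranked 493 in replicate 1 and 28638 in replicate 3, Lip3/CG34309 ranked 2028 and 26480, Aduk/pasi2 ranked 1870 and 20159, and CG9231/CG9330 ranked 515 and 14606. In the other direction the largest difference was at CG17977/lig, which ranked 8317 in replicate 1 and 909 in replicate 3, followed by trsn/Pef (5337 and 1434) and E(bx)/mthl14 (4394 and 775).

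From each replicate's own 2567 strongest arm regions, 248 annotated pairs had a summit within 500 bp of both TSSs in replicate 1 and 129 in replicate 3, and 96 were common to both. The common pairs were 38.7% of those of replicate 1 and 74.4% of those of replicate 3. What differed between the libraries beyond this, such as depth or chromatin, is not in the lists and was not tested. Over the 134 peaks with a region in both, Spearman's rho of the replicate signals was 0.72, compared with 0.52 over 653 peaks at one-directional promoters and 0.40 over 1669 away from TSSs. The rho leaves out peaks without a region in replicate 3, which were 11.2% at divergent pairs and 2.84% away from TSSs. Where 2 peaks overlap the same replicate regions, those regions enter for each peak. Signal also spreads more widely at divergent pairs than in the other classes, and the part of this in the rho was not tested. The rho values are descriptions across sites, which share the libraries and the labelled control.

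**Figure D2:**
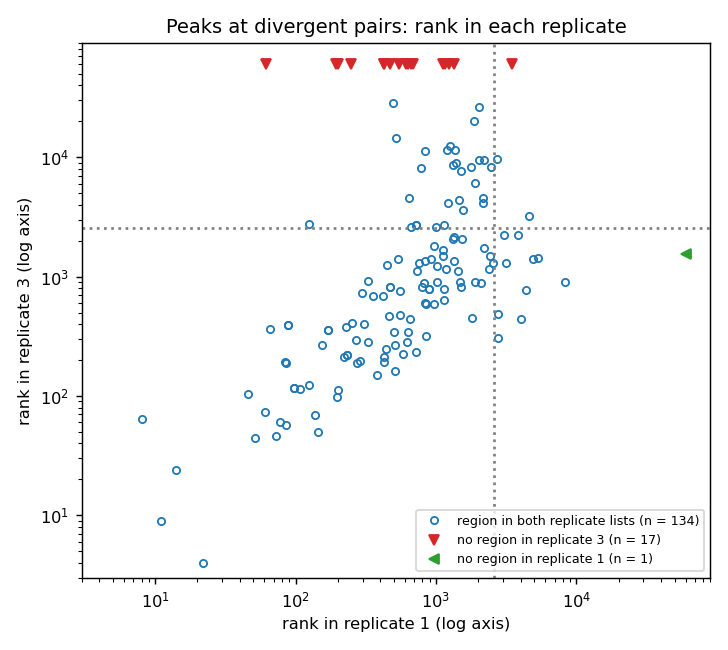
Rank by signal of the 152 peaks at divergent pairs in replicate 1 and replicate 3 (log axes, rank 1 strongest). Circles are the 134 peaks that overlap a region in both lists, red triangles at the upper edge the 17 without one in replicate 3, the green triangle at the right edge the 1 without one in replicate 1, and dotted lines the 2567 strongest regions of each.

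The summits lay mostly between the paired TSSs, taken as those nearest the summit on each strand, from any transcript. This held for 127 of 149 head-to-head peaks (85.2%, interval 78.5 to 90.5). Of the others, 13 lay beyond the minus-strand TSS and 9 beyond the plus-strand TSS, inside one of the genes. A summit counted as between can also lie inside a longer transcript of a gene, as at Stt3A/bves. With 1 TSS per gene the summit lay between the TSSs in 113 of 143 peaks (79.0%), compared with 127 of 152 (83.6%) here. The 127 include 26 with TSSs over 500 bp apart, where the 500 bp rule leaves no other place for the summit. The distance between the paired TSSs had a median of 314 bp (quartiles 239 and 421, range 30 to 849). The summit lay 89 bp from the nearer TSS (quartiles 55.8 and 134) and 241 bp from the farther (187 and 328) at the median, and 70.8 bp from the midpoint. It was nearer to the plus-strand TSS in 81 and to the minus-strand TSS in 71, and in 52 of the 127 it lay in the middle part when the span was divided into 3 equal parts. By annotation 111 summits were intergenic (73.0%, 65.2 to 79.9), 26 in a 5′ UTR, 14 in an intron, 1 in a 3′ UTR and 0 of 152 in coding sequence, which allows a share of up to 2.40%. At one-directional promoters 47.8% were intergenic and 32.2% intronic.

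Where the TSSs were close together, the summit fell outside the span more often. It lay between them in 2 of 10 peaks with TSSs up to 100 bp apart, 9 of 17 at 101 to 200 bp, 36 of 41 above 200 and up to 300 bp, 54 of 55 at 301 to 500 bp and all 26 over 500 bp. The span is also the room in which a summit can count as lying between the TSSs. Over 500 bp the rule itself fixes the result, since a summit outside the span would lie over 500 bp from the farther TSS. The room that the rule leaves outside the span shrinks as the span nears 500 bp. Between the TSSs nearest the summit, the shortest distances were at Ripalpha/RpL7 (30 bp), where the summit lay 9 bp inside RpL7, and CG11309/CG7632 (39 bp). The closest TSSs of CG3032/CG4593 and Stt3A/bves were 6 and 26 bp apart, but the TSSs nearest their summits were 225 and 609 bp apart. The longest distances were at Atg16/Prtl99C (849 bp, summit 432 bp from Atg16) and GstS1/CG46491 (740 bp, summit 365 bp from GstS1). The replicate summits were 39.5 bp apart at the median over the 134 peaks (quartiles 17 and 72), and 85.8% were within 100 bp of each other, which is wider than the shortest spans. Replicate 1 alone put 123 of 151 summits between the TSSs (81.5%) and replicate 3 alone 108 of 135 (80%).

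**Figure D3:**
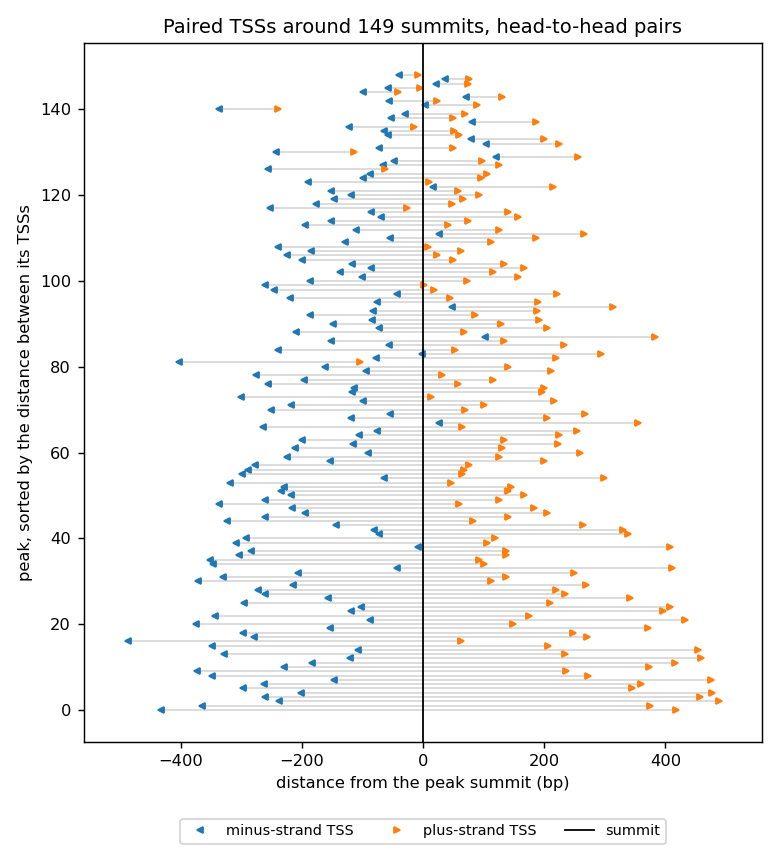
Positions of the nearest minus-strand TSS (blue) and plus-strand TSS (orange) relative to the peak summit (0 bp, black line) for the 149 head-to-head peaks, 1 row per peak, with the widest spans at the bottom. The summit falls between the 2 TSSs in 127 of the rows, and the rows where it does not are mostly narrow spans at the top. With TSSs over 500 bp apart the rule allows no other place.

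At the edge of the 500 bp limit, the last peaks inside were Pde11/CG15160 (487 bp from the TSS of Pde11, pooled signal 107) and Lip3/CG34309 (489 bp from that of CG34309, 67.7). The first outside were chic/eIF4A, genes of profilin and of a translation initiation helicase (504 bp from the TSS of eIF4A, 85.7), and rux/MCTS1 (507 bp from that of MCTS1, 93.9).

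A second summit at the same pair was seen at 11 pairs. In 9 of them the summits were 199 to 233 bp apart, and in 8 the 2 intervals overlapped. At CG9586/tai, the promoter of the tagged gene, summits lay at 9166557 and 9166760 on 2L (signals 222 and 182). The strongest region overlapping each was the same one in each replicate, of rank 171 in replicate 1 and 359 in replicate 3. The summit of that region was at 9166572 in replicate 1 and at 9166733 in replicate 3. Both summits likewise shared their strongest replicate regions at Acbp1/Piezo, Alh/CG10098, CG32428/CG5969, Drep4/Uvrag, RecQ5/dlp and Vps60/anchor. Only the strongest overlapping region was looked up, so whether the second summit has a weaker region of its own was not tested. The pairs CG11076/ATPsynbeta and Elp6/Dic1 had summits 802 and 2359 bp apart, each with its own nearest TSS on either strand. Counted once per pair, 141 peaks remained and 85 of them were in the top regions of both replicates (60.3%).

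Most annotated divergent pairs had no peak. The annotation held 2720 pairs of protein-coding genes on opposite strands with TSSs within 1000 bp, and 145 of them had an IDR summit within 500 bp of both TSSs (5.33%, interval 4.52 to 6.24). Of the 5141 genes in such a pair, 388 had an IDR summit within 500 bp (7.55%, 6.84 to 8.30), compared with 495 of 8804 genes in no pair (5.62%, 5.15 to 6.12). At a pair 1 summit can count for both genes, as it did for 286 of the 388. The intervals treat genes as independent, so these 2 shares are not like for like. Each annotated pair was measured at its closest TSSs, which need not be those nearest a summit. Among head-to-head pairs the share was 3.10% with TSSs 1 to 100 bp apart (1.66 to 5.25) and 5.08% at 101 to 200 bp (3.04 to 7.92). It was 6.99% above 200 and up to 300 bp (4.97 to 9.51) and 7.83% at 301 to 500 bp (5.89 to 10.2). It was 4.33% at 501 to 750 bp (2.58 to 6.75) and 1 of 246 pairs at 751 to 1000 bp, where few positions lie within 500 bp of both TSSs. With replicate 1 alone 9.12% of all pairs had a summit and with replicate 3 alone 4.74%. Per arm, the share was 6.82% on 3L (36 of 528), 6.38% on 2L (33 of 517), 5.12% on X, 4.43% on 3R and 4.14% on 2R, with overlapping intervals, and chromosome 4 had 1 of 11.

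**Figure D4:**
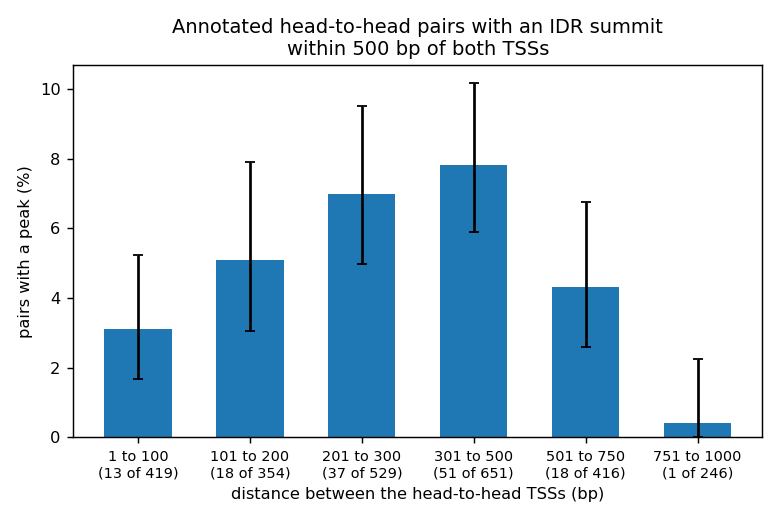
Share of annotated head-to-head pairs with an IDR summit within 500 bp of both TSSs, by the distance between the closest TSSs of the pair (bars, with 95% Clopper-Pearson intervals and counts under each). The share is highest at 301 to 500 bp (7.83%) and lowest at 751 to 1000 bp (1 of 246), and neighbouring intervals overlap except between the 2 widest bins.

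The gene lists were short and defined by symbol patterns, so they can leave out genes of their kind. The share per list with a peak at a divergent pair ran from 0% to 6.25%. Over all protein-coding genes on the arms, 286 of 13945 (2.05%) were in a pair with such a peak. Mitochondrial ribosomal protein genes had 4 of 75: mRpL34, beside the dystroglycan gene Dg (pooled signal 268, ranks 200 in replicate 1 and 113 in replicate 3), mRpL20 (195), mRpS6 (120.2) and mRpS7. Proteasome genes had 3 of 48, among them Prosalpha6, in a pair with the sterol transport gene Npc1a (96.7), and Rpn13 (84.4). Respiratory chain genes had 3 of 92: ND-SGDH (164), ATPsynbeta (116) and COX7C (87.0). Cytosolic ribosomal protein genes had 3 of 93: RpL7 (103), RpS13 (88.0) and RpS21 (79.8).

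Vesicle traffic genes had 6 of 103, led by Vps60 (221), of the ESCRT machinery, and the small GTPase genes Rab30 (197) and Rab21 (92.4). The chromatin list, which does not hold Ino80, had 2 of 45, Chro (600.1) and E(bx), a nucleosome remodeling subunit (82.8), and autophagy and cell death genes had 2 of 33, Atg3 (90.9) and Atg16 (82.6). Lists with 1 gene were translation factors (eRF1, which ends translation, 164, of 56), tRNA synthetases (ArgRS-m, 199.5, of 33), RNA polymerase and general transcription (MED7, a Mediator subunit, 200.2, of 80, in a list without Ssl1 and Brf) and cell cycle genes (Cdk1, of 68). Among signalling lists there were tai of 30 ecdysone response genes (3.33%), wts of 24 Hippo genes (4.17%), Akt, the insulin pathway kinase gene (70.0), of 28 (3.57%), and none of 25 Notch pathway genes. Splicing (36 genes), heat shock and chaperone (38) and nuclear pore genes (30) had none, though 32, 20 and 25 of these lie in an annotated pair. The share of genes in any pair was 36.9% over all genes, 78.7% for mitochondrial ribosomal proteins and 20% for ecdysone response genes, so the lists did not start from the same number of pairs.

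Motifs of housekeeping promoters were found in a minority of these peaks, in windows reaching 100 bp to each side of the summit. The DRE (TATCGATA) was present in 16 of 152 windows (10.5%, interval 6.14 to 16.5), compared with 6.10% at one-directional promoter peaks (4.43 to 8.15), 0.290% of peaks away from TSSs and 2.45% of all arm IDR peaks. It was also present in 8.40% of head-to-head pairs without a peak (7.33 to 9.56), in a window of equal length at the midpoint, and around 6.45% of all protein-coding TSSs. At the midpoint of the pairs with a peak the share was 11.2% (6.53 to 17.5), and the intervals of pairs with and without a peak overlapped. Motif 1 of the factor M1BP (GGTCACACT) was in 7 windows (4.61%, 1.87 to 9.26), compared with 1.74% at one-directional promoter peaks and 0.857% of all arm IDR peaks. At the midpoint Motif 1 was in 4.28% of head-to-head pairs without a peak and 4.90% of those with a peak. No window held both.

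The peaks with a DRE were led by CG11180/FAM21, a pair with a gene of the WASH complex (2R, 20623385 to 20623588, signal 298, ranks 138 and 69 in replicates 1 and 3), which held 2. Next were the pair of CG7369 (3L, 22741579 to 22741795, signal 272, ranks 85 and 189) and grsm/Spc25, with a kinetochore gene (3R, 12961493 to 12961896, signal 217, ranks 286 and 195). Rab30/Caper, Enoph/Hph, hts/CalpA, Rbbp5/eRF1 and CG8188/par-6 followed, with signals of 197, 188, 172, 164 and 152. The 18 matches lay 36 bp from the summit at the median, and 13 of them within 50 bp. Of the 16 peaks, 12 were in the top regions of both replicates, compared with 93 of all 152 (61.2%) and 50.4% of all arm IDR peaks. Signals ran from 77.9 to 298 in the peaks with a DRE (median 144) and from 68.7 to 144 in the 7 with Motif 1 (median 103). The peaks with Motif 1 were led by CG9003/CG34228 (144) and CG32428/CG5969 (113), and 1 of 7 was in the top regions of both. The counts for both motifs are small, and their difference was not tested. In the sequence shown for CG7369 the DRE lies 18 bp from the summit and 100 bp upstream of the TSS of CG7369.

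All motifs were searched on both strands with overlaps allowed: the nuclear receptor core and Motif 1 can share letters, and so can the TATA box and the forkhead core. GAGA (GAGAG) was in 13.8% of windows (8.76 to 20.3), compared with 26.6% at one-directional promoter peaks (23.3 to 30.0), 24.3% of all arm IDR peaks and 14.3% of head-to-head pairs without a peak (12.9 to 15.7). Of the 21 peaks with GAGA, 10 were in the top regions of both replicates and 6 had no region in replicate 3. Over all 152 peaks these shares were 61.2% and 11.2%, and over all arm IDR peaks 50.4% and 3.90%. The counts with GAGA are small, and the difference was not tested. The E-box CAGCTG was in 13.8% (8.76 to 20.3), compared with 8.71% at one-directional promoter peaks (6.71 to 11.1), 7.28% of all arm IDR peaks and 12.9% of pairs without a peak. The E-box CACGTG was in 6 windows (3.95%, 1.46 to 8.39), compared with 1.68% of all arm IDR peaks, 2.42% of pairs without a peak and 2.80% around all protein-coding TSSs. CACGCG, the core of elements bound by Met or gce with tai, was in 5 windows (3.29%, 1.08 to 7.51), compared with 3.74% of all arm IDR peaks. The nuclear receptor core AGGTCA was in 2 windows (1.32%, 0.160 to 4.67), compared with 3.58% of all arm IDR peaks and 4.36% of pairs without a peak, and the AP-1 motif TGANTCA in 2, compared with 5.26% of all arm IDR peaks.

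The remaining motifs were the TATA box (TATAAA), in 38.8% of windows and 34.3% of those of all arm IDR peaks, the initiator core TCAGT (30.9% and 35.5%), the forkhead core TAAACA (28.3% and 26.8%), the GATA motif AGATAA (15.1% and 14.6%) and the TEAD motif GGAATG (6.58% and 6.43%). Matches to short motifs vary with base composition, whose part in these shares was not tested. Median GC content was 33.8% at the peaks described, 35.8% at one-directional promoter peaks, 33.3% at the midpoints of pairs without a peak and 42.3% around all protein-coding TSSs. A match describes the letters in the window and is no evidence of binding.

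**Figure D5:**
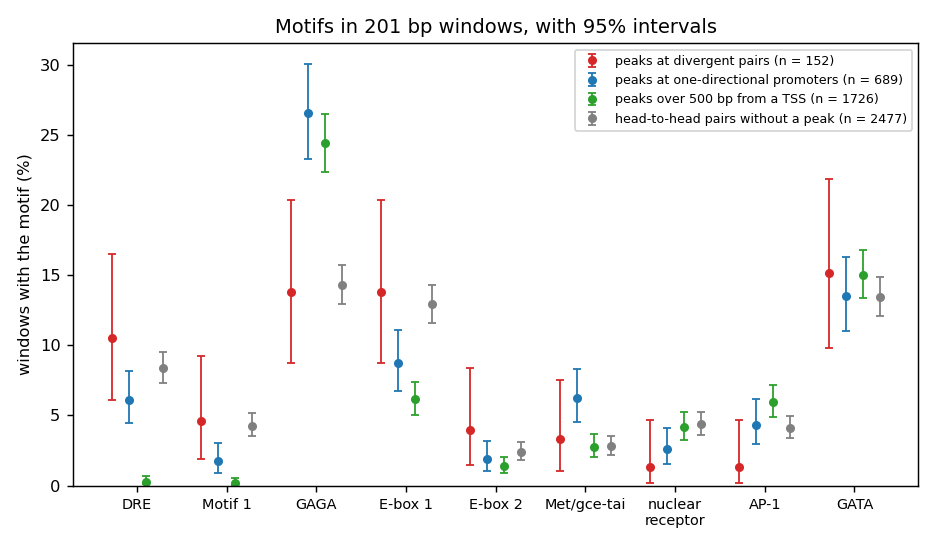
Share of windows (100 bp to each side of the centre) that hold each motif, with 95% Clopper-Pearson intervals, for peaks at divergent pairs (red), at one-directional promoters (blue) and away from TSSs (green), each centred on the summit, and for head-to-head pairs without a peak, centred on the midpoint (grey). E-box 1 is CAGCTG, E-box 2 CACGTG and Met/gce-tai CACGCG, and for DRE, Motif 1, GAGA and E-box 1 the red interval overlaps the grey one.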

How the data were processed

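The submitters made peak lists in narrowPeak layout from ChIP-seq of both replicates, on the dm6 build used here. Per the deposited text records, each replicate's list (29999 and 30000 regions) and the pooled list (30000) hold background regions too and derive from the replicates' alignments and 1 further file common to all, and the IDR list derives from these lists. The labels name 1 control experiment for both replicates. For the aligner, the caller and their settings, nothing is recorded beyond that. The deposited signal value of a region, made by the authors, was used to rank arm regions within a list. The deposited −log10 q value is not reported, and the deposited summit offset gave the summit.

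TSSs of all transcripts of protein-coding genes came from Ensembl release 115 of BDGP6.54, which has the arms of dm6, and sequence from RefSeq's copy of that assembly. Coordinates are 1-based. The pair of a peak is its nearest TSS on each strand. Replicate support means an overlap of 1 bp or more with one of the 2567 strongest arm regions of a replicate, or with any region of its list. Shares have 95% Clopper-Pearson intervals from scipy 1.17.1, with Python 3.11.15, pandas 2.3.3, numpy 2.4.6 and matplotlib 3.10.9. The 13 motifs were matched exactly on both strands within 100 bp of the summit. The 18 gene lists were defined by symbol and follow no ontology. Members, lists and motifs were chosen with earlier results of these data known. Classification and motif search were tested on simulated data with planted sites. Genes named are those of the 12 strongest peaks, up to 3 per list, the largest rank differences, peaks missing in a replicate, the strongest with DRE or Motif 1, those at the 500 bp limit and the extremes of TSS distance. Named besides, after their values were seen, were peaks with 3 genes, overlapping 5′ ends or a second summit, more of the peaks missing in replicate 3, mRpS7 as a partner of Cdk1, the largest rank differences in favour of replicate 3, and further peaks with a DRE. So were pairs whose closest TSSs are not those nearest the summit. The peak of 1 gene under this rule is not reported here. The mitochondrial genome, the Y chromosome and the dm3 lists were not used here. With 1 group of 2 replicates there is no test between groups, and no p-value is given.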

Additional observations from a re-analysis of the deposited data

How the results depend on the processing

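The number of pairs counted changed with the TSS window: 2030 at 250 bp and 3845 at 1000 bp, compared with 2720 at 500 bp. With a TSS window of 250 bp 79 peaks met the rule and 3.89% of pairs had a peak. With the 1000 strongest arm peaks alone these values were 97 and 3.42%, and 78.4% of the peaks were in the top regions of both replicates. Leaving out 1 replicate gave 130 to 243 peaks, both above and below the 152 reported, and 4.74% to 9.12% of pairs with a peak, the upper values being those without replicate 3. Counting a pair when a peak interval touched either TSS or the span between them gave 6.58%, and a motif window of 250 bp to each side gave DRE in 27.6% of windows, as a wider window must. For these shifts the cause was not tested beyond what the settings themselves fix. The other 41 of 50 values, which include a TSS window of 1000 bp, 1 TSS per gene, 1 peak per pair and an overlap of 50% of the peak, stayed within 1.5 times the reported count or within the 95% interval of the reported share. The shares of head-to-head pairs, of summits between the TSSs and of peaks above the upper quartile of signal stayed there under every setting run. No paired analysis was possible because there is 1 group. Depth per replicate is unknown, so a peak missing from a list is not shown to be absent from the chromatin.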
